A study of Arabidopsis thaliana with 10 samples.

Results

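Whole Arabidopsis thaliana plants deprived of calcium for 2 days were compared with control plants of the same age on Affymetrix ATH1 arrays, which measure transcripts of nuclear, plastid and mitochondrial genes of this species. The comparison holds 4 of the 10 arrays of the study, chosen by their titles: 2 of calcium-deficient plants and 2 of control plants. A pair of arrays of plants deprived of boron for 2 days entered the same fit and gave the direct test of whether a difference was larger without calcium than without boron. The remaining 4 arrays, of boron-deficient and control plants at 4 days, were left out because their signals were scaled to about 2 times the level of the others.

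The calcium-deficient, boron-deficient and control plants were all grown on perlite and watered with a complete solution holding 25 µM boron and 3 mM calcium, at 16 °C by night and 22 °C by day with 16 h of light. The calcium-deficient plants were then watered with a solution without calcium, in which magnesium and potassium salts made up the nitrate, so that loss of calcium and gain of magnesium and potassium cannot be told apart. The boron-deficient plants received a solution without boron. All were whole plants sampled at 19 days of age. One label field dates the treatment from day 17 and another from day 19, and the accession and genotype of the plants are not named in the labels. Replicates are labelled biological, but nothing says how many plants were pooled for one array, so p-values measure the spread between these arrays.

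Calcium holds the plant cell wall together by bridging the acidic pectin chains of neighbouring polymers, and it stabilises membranes. Inside the cell its free level is kept low, and brief rises act as signals that are read by calmodulin, calmodulin-like proteins and calcium-dependent kinases. It is stored in the endoplasmic reticulum, where calreticulin binds it, and in the thylakoid it is part of the oxygen-evolving centre of photosystem II.

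Median signals of the 6 arrays of 2 days lay between 114.9 and 121.2 as deposited. On these deposited values the arrays of the calcium-deficient pair were the most alike (Spearman correlation over probe sets 0.993). The boron-deficient pair had 0.981 and the control pair 0.969. The second boron-deficient array correlated as highly with the calcium-deficient arrays (0.981 and 0.980) as with its own replicate. On the first principal component after quantile normalization, which held 51.4% of the variance, the calcium-deficient arrays lay at −35.8 and −29.0. The boron-deficient arrays lay at 12.4 and −13.2 and the control arrays at 26.6 and 39.0. Transcripts of green tissue and of root had signal in each array compared. LHCB4.1, a light-harvesting protein, had quantile-normalized signals of 11260.2 and 10262 in the calcium-deficient arrays, against 10371 and 11260.2 in the control arrays. PYK10, the main beta-glucosidase of root endoplasmic reticulum bodies, had 2977 and 2196 in the calcium-deficient arrays, against 1061 and 1304 in the control arrays. Neither speaks for its list. All 9 tested nuclear photosynthesis genes had log2 changes below 0 (calcium-deficient minus control, median −0.36), and LHCB4.1 changed least of them. PYK10 was the only 1 of 3 tested root markers to pass.

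Calcium deficiency changed 1922 of the 17059 probe sets tested, or 11.3%, at an adjusted p under 0.05 (limma moderated test with Benjamini-Hochberg adjustment). Of these, 1093 were higher in calcium-deficient plants (6.41% of those tested) and 829 were lower (4.86%), and 814 differed by at least 2-fold. Those that fell included 32 of 69 tested plastid genes, 3 of 9 nuclear photosynthesis genes, 4 of 5 photorespiration genes and 5 of 11 genes for the breakdown of branched-chain amino acids. Those that rose included 6 of 10 AAA-type ATPases of one family, 4 of 8 chitinases, 2 of 5 defensins and 3 of 5 genes for protein folding in the endoplasmic reticulum. The lists of photorespiration genes, AAA-type ATPases, chitinases and defensins were made after the values were seen. Their counts cannot be set against the shares of all probe sets. Of the 1922, 992 carried the name of a single gene in the probe annotation given for these arrays. The other 930 had no such name there and were counted but not described. Signals below are quantile-normalized and linear, and changes are differences of log2(signal + 16), calcium-deficient minus control unless another pair is named.

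**Figure D1:**
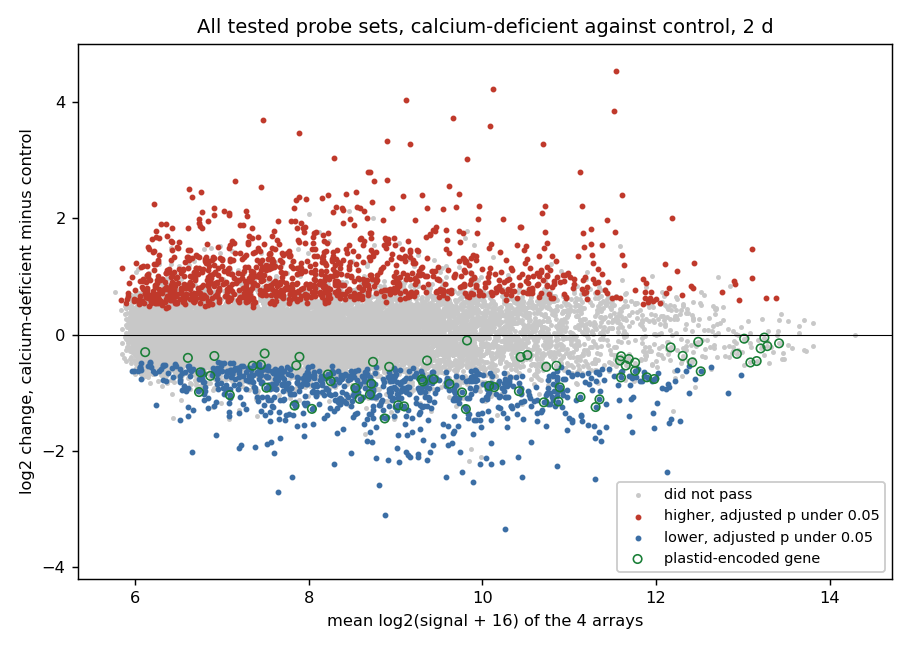
Each point is one of the 17059 probe sets tested, with its mean log2(signal + 16) over the 4 arrays on the x axis and its log2 change, calcium-deficient minus control, on the y axis. Red points (1093) and blue points (829) passed at an adjusted p under 0.05, and the green rings of plastid-encoded genes all lie below 0.

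The calls rest on both calcium-deficient arrays. With either of them left out, 0 probe sets passed in limma at an adjusted p under 0.05, while 2482 (without replicate 1) and 3105 (without replicate 2) had an unadjusted p under 0.05. Without control replicate 2, 648 probe sets were higher and 710 lower, and without control replicate 1, 1176 were higher and 838 lower. Of the 103 named genes that passed in calcium-deficient plants against controls, 58 still passed with each boron-deficient or control array left out in turn. Genes described below that no longer passed without control replicate 2 included CHI, CRT1b, ATERDJ3B, AT3G28540, AT5G17760, psbC, NdhL, TAPX, ATL8, XTH19, EXPA4, ZIP9, GSTU20, AT1G68570, AT3G21670 and AT1G66100. PYK10, WRKY53 and AT2G10940 no longer passed without control replicate 1, and AT4G33720, PDF2.5, GLR2.8, BCAT4, SAG101, NdhS, GSTU18 and MSRB6 lost their call without replicate 1 and also without replicate 2. PDF2.5, AT1G68570, GSTU18 and AT2G10940 no longer passed when probe sets of low signal were kept in the test, and SAG101 and BCAT4 no longer passed with arrays weighted by quality.

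Plastid genes were lower in calcium-deficient plants. Of the 85 genes of the plastid chromosome in RefSeq, 69 had a probe set of their own and all of these were tested: 32 fell, 0 rose, and all 69 estimates were below 0, with a median log2 change of −0.63 against −0.02 over all probe sets. Both calcium-deficient arrays lay below both control arrays for 64 of the 69, where 30.8% of all probe sets did so. The largest fall among them was in ndhE, a subunit of the NAD(P)H dehydrogenase-like complex that carries out cyclic electron flow around photosystem I, which had signals of 227 and 319 in the calcium-deficient arrays, against 797 and 722 in the control arrays (log2 change −1.44, SE 0.22, adjusted p = 0.0135). The arrays of the groups did not overlap for this gene.

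Within photosystem II, psbD and psbC encode the D2 reaction centre protein and the CP43 antenna. The signal of psbD was 136 and 172 in the calcium-deficient arrays, against 386 and 401 in the control arrays (log2 change −1.28, SE 0.15, adjusted p = 0.00957). Its neighbour psbC had 501 and 627 in the calcium-deficient arrays, against 1299 and 1474 in the control arrays (log2 change −1.28, SE 0.22, adjusted p = 0.0175). The 2 genes lie side by side on the plastid chromosome and are partly co-transcribed, so their values are not independent. The D1 protein gene psbA, whose product is replaced fastest in light, had 1702 and 1813 in the calcium-deficient arrays, against 4029 and 3621 in the control arrays (log2 change −1.11, adjusted p = 0.0188). For all 3 genes every calcium-deficient array was below every control array, as was so for 30.8% of all probe sets. A further gene of this complex, psbM, did not pass, with 9665 and 9415 in the calcium-deficient arrays, against 9509 and 10262 in the control arrays (log2 change −0.05, adjusted p = 0.837).

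By complex, 10 of 15 photosystem II genes fell (median −0.80), as did 4 of 7 genes of photosystem I and its assembly (median −1.03), 5 of 6 of the cytochrome b6f complex (median −0.76), 3 of 6 of the ATP synthase (median −0.62) and 4 of 10 of the NDH complex (median −0.78). Of these 44 genes for the photosynthetic machinery, 26 fell. In photosystem I, psaI had 1387 and 1906 in the calcium-deficient arrays, against 4199 and 3582 in the control arrays (log2 change −1.25, SE 0.20, adjusted p = 0.0153). The reaction centre gene psaA had 126 and 142 in the calcium-deficient arrays, against 305 and 364 in the control arrays (log2 change −1.22, adjusted p = 0.00957). Of the plastid's own expression machinery, 2 of 15 ribosomal protein genes and 0 of 4 RNA polymerase genes fell, with medians of −0.53 in each. Of the 6 other genes 4 fell, among them accD, a subunit of the acetyl-CoA carboxylase for fatty acid synthesis, with 318 and 337 in the calcium-deficient arrays, against 794 and 769 in the control arrays (log2 change −1.22, adjusted p = 0.0104), whereas the protease gene clpP did not pass (log2 change −0.07).

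**Figure D2:**
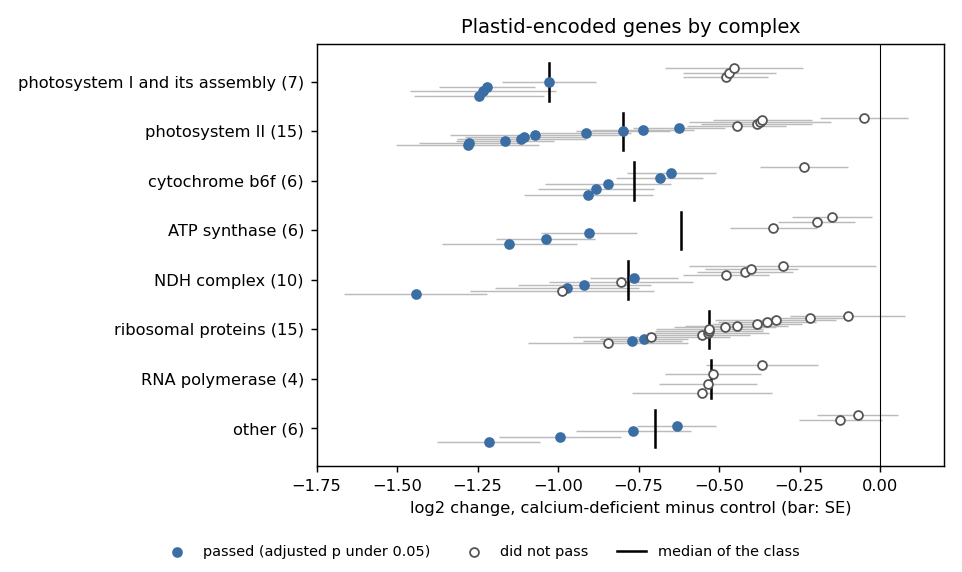
Log2 change (x axis, calcium-deficient minus control, bar: SE) of each of the 69 plastid-encoded genes, grouped by complex with the number of genes in brackets. Filled points (32) passed at an adjusted p under 0.05, open points did not, and the black lines are class medians, from −1.03 for photosystem I to −0.53 for ribosomal proteins and RNA polymerase.

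The plastid genes were also lower against boron-deficient plants, with 15 of 69 lower and 0 higher (median −0.67), where 1.4% of all probe sets were lower and 1.34% higher. Of the 15, 10 were among the 32 above. Without boron-deficient replicate 1, 0 of the 69 passed in that comparison. Of 12 tested genes of the mitochondrial genome 1 fell and 0 rose against controls (median −0.12). Plastid transcripts mostly lack the stable poly(A) tails that labelling for this kind of array relies on, so these signals measure them in part. In whole plants, fewer cells of a type and less RNA per cell cannot be told apart.

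Among nuclear genes for chloroplast proteins, all 3 tested nuclear subunits of the NDH complex fell, a list put together after the values were seen. NdhN had signals of 326 and 289 in the calcium-deficient arrays, against 996 and 853 in the control arrays (log2 change −1.54, SE 0.20, adjusted p = 0.0104). NdhL had 339.6 and 310.0 in the calcium-deficient arrays, against 1155 and 1202 in the control arrays (log2 change −1.81, adjusted p = 0.0171), and NdhS fell by 0.67 on the log2 scale (adjusted p = 0.0405). Each calcium-deficient array lay below each control array for all 3, as was so for 30.8% of all probe sets.

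Of 9 tested nuclear photosynthesis genes 3 fell and 0 rose (median −0.36). SBPASE, the Calvin-Benson cycle phosphatase that commits carbon to regenerating the carbon dioxide acceptor, had 1290.5 and 1179 in the calcium-deficient arrays, against 3259 and 3041 in the control arrays (log2 change −1.34, SE 0.16, adjusted p = 0.00957). PSAN, a luminal subunit of photosystem I, had 3562 and 3933 in the calcium-deficient arrays, against 7011 and 7989 in the control arrays (adjusted p = 0.0162). PRK, phosphoribulokinase of the same cycle, had 3228 and 3105 in the calcium-deficient arrays, against 5139 and 5454 in the control arrays (log2 change −0.74, adjusted p = 0.019). Both calcium-deficient arrays lay below both control arrays for 7 of the 9, these 3 among them, where 30.8% of all probe sets did so. The other 6 did not pass, among them RCA, Rubisco activase (log2 change −0.48, adjusted p = 0.0602), and LHCB4.1 (log2 change −0.01, adjusted p = 0.975).

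Photorespiration genes, listed after the values were seen, gave 4 lower and 1 higher of 5 tested (median −1.49). HPR, the peroxisomal hydroxypyruvate reductase, had 2358 and 2251 in the calcium-deficient arrays, against 6893 and 7189.7 in the control arrays (log2 change −1.60, SE 0.16, adjusted p = 0.00922). Glycerate kinase, AT1G80380, had 883 and 1074 in the calcium-deficient arrays, against 2431 and 3525 in the control arrays (log2 change −1.57, adjusted p = 0.0127). The glycine cleavage system was split: its T-protein AT1G11860 and its H-protein AT1G32470 fell (log2 changes −1.19 and −1.49), whereas another H-protein gene, AT2G35120, rose to 597 and 592 in the calcium-deficient arrays, against 311 and 296 in the control arrays (log2 change 0.93, adjusted p = 0.0204). Among markers of root cells tested beside these results, PYK10 rose (log2 change 1.11, adjusted p = 0.0235), and the root-hair expansins EXPA7 and EXPA18 did not pass (log2 changes 0.13 and 0.31). The part of tissue proportions in the photosynthesis results was not tested.

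The strongest rise among named genes was in AT3G28510, an AAA-type ATPase of the BCS1-like family, which had signals of 694 and 562 in the calcium-deficient arrays, against 45.1 and 24.1 in the control arrays (log2 change 3.69, SE 0.45, adjusted p = 0.00957). In boron-deficient plants it had 21.7 and 92. The calcium-deficient arrays stood far above all 4 others, and lying above them was a condition of its choice. Of 10 tested members of this family, a list made after the values were seen, 6 rose and 1 fell (median 1.03). AT1G43910 had 1094 and 1033 in the calcium-deficient arrays, against 279 and 86 in the control arrays (log2 change 2.64, adjusted p = 0.0222). AT3G28540 had 2326 and 1951 in the calcium-deficient arrays, against 538 and 367 in the control arrays (log2 change 2.22, adjusted p = 0.0249), and AT5G17760 rose by 2.15. The member that fell was AT5G17730 (log2 change −0.62). Members of such a family can share probe sequence, and this was not tested.

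Of 8 tested chitinases, which cut the chitin of fungal walls, 4 rose and 0 fell, with a median of 0.98 (a list made after the values were seen). CHI, AT2G43570, had 4838 and 4957 in the calcium-deficient arrays, against 1326 and 815 in the control arrays (log2 change 2.22, SE 0.50, adjusted p = 0.0343), with 496 and 1639 in the boron-deficient arrays. AT3G47540 had 1311 and 1238 in the calcium-deficient arrays, against 369 and 341 in the control arrays (log2 change 1.80, adjusted p = 0.0106). Both calcium-deficient arrays were above all 4 other arrays for both genes. A further chitinase, AT2G43610, was 841 and 979.7 in the calcium-deficient arrays, against 856 and 1019.9 in the control arrays, with overlapping groups (log2 change −0.04).

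Among lectins and small secreted proteins, AT5G03350, a legume-type lectin, had 6213 and 5520.4 in the calcium-deficient arrays, against 960.1 and 711 in the control arrays (log2 change 2.80, SE 0.28, adjusted p = 0.00922). JAL23, a jacalin-related lectin, rose by 2.34 (adjusted p = 0.00957). The defensin PDF1.2, a marker of jasmonate and ethylene defence, had 2405 and 2827 in the calcium-deficient arrays, against 600.4 and 849.6 in the control arrays (log2 change 1.84, adjusted p = 0.00957), and PDF2.5 rose by 1.69. These were 2 of 5 defensins tested, a list made after the values were seen. AT4G33720, of the PR-1-like CAP family, had 1324 and 1711 in the calcium-deficient arrays, against 175 and 103 in the control arrays (log2 change 3.33, adjusted p = 0.0325). It was 1 of 11 tested family members to pass, and the boron-deficient arrays differed widely for it (175 and 1181).

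Of the genes listed for salicylic acid and systemic defence 2 were tested and both rose. GRX480, a glutaredoxin that binds TGA factors, had 997 and 947 in the calcium-deficient arrays, against 259.6 and 366 in the control arrays (log2 change 1.61, adjusted p = 0.0137). SAG101, a lipase-like partner of EDS1 in immune signalling, had 469 and 351 in the calcium-deficient arrays, against 229 and 234 in the control arrays (log2 change 0.77, adjusted p = 0.0353). WRKY53, a factor of senescence and defence, was the 1 of 7 WRKY genes to rise, with 1087 and 848 in the calcium-deficient arrays, against 416 and 531 in the control arrays (log2 change 1.01, adjusted p = 0.0241). Its boron-deficient arrays were in the same range (996 and 862). Of genes for secondary metabolism and detoxification, 3 of 10 glutathione transferases rose, where 6.41% of all probe sets were higher. In addition, 7 of 20 serine carboxypeptidase-like genes and 4 of 10 beta-glucosidases rose. Made after the values were seen, these lists cannot show a rise beyond that share. Among the glutathione transferases, GSTU26 had 362 and 265 in the calcium-deficient arrays, against 52.9 and 65 in the control arrays (log2 change 2.12, adjusted p = 0.0104), while GSTU18 fell (log2 change −0.76). Of 41 UDP-glycosyltransferases 4 rose (9.76%) and 2 fell (4.88%), near the 6.41% and 4.86% of all probe sets, with a median of −0.06. UGT73D1 had 302 and 282 in the calcium-deficient arrays, against 78 and 99.8 in the control arrays (log2 change 1.56). The lists of carboxypeptidase-like proteins, beta-glucosidases, glycosyltransferases and PR-1-like proteins were made after the values were seen.

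**Figure D3:**
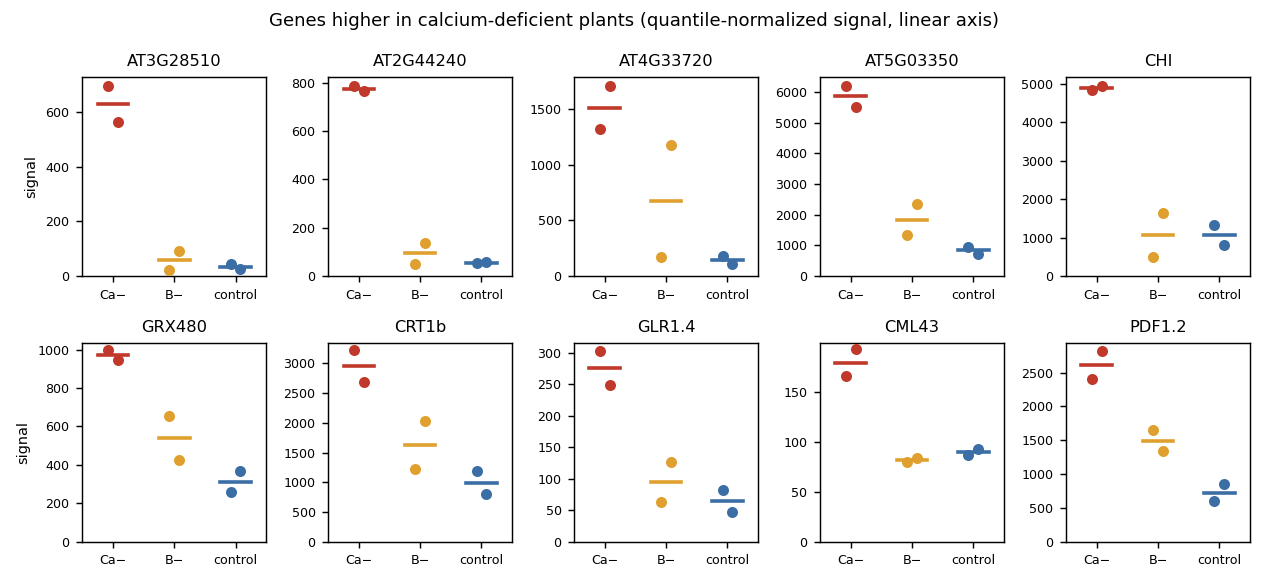
Quantile-normalized signal on a linear axis from 0 for 10 genes higher in calcium-deficient plants. Each panel shows the 2 arrays (points) and their mean (line) for calcium-deficient (Ca−, left), boron-deficient (B−) and control plants. Both calcium-deficient arrays lie above both control arrays in every panel, as they did for 5112 of all 17059 probe sets tested. This was a condition of choice for AT3G28510, AT2G44240, AT4G33720 and AT5G03350.

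The genes that read or move calcium were covered in part: 8 of 21 listed calcium sensor genes were named by a probe set, and 7 of the 39 gene lists, calcium-dependent kinases among them, had none tested. Of the 8 tested calcium sensors 1 rose: CML43, a calmodulin-like protein, had 165 and 193 in the calcium-deficient arrays, against 86.3 and 92.3 in the control arrays (log2 change 0.89, SE 0.13, adjusted p = 0.013). The other calmodulin-like genes did not pass, with changes from −0.67 in CML30 to 0.98 in AT1G76640 (adjusted p = 0.0635). Among 7 tested calcium transport genes, all of them glutamate receptor-like channels, 2 rose. GLR1.4 had 302 and 248 in the calcium-deficient arrays, against 82.5 and 47.2 in the control arrays (log2 change 1.88, adjusted p = 0.0157), and GLR2.8 had 234 and 178 in the calcium-deficient arrays, against 98.7 and 102 in the control arrays (log2 change 0.92, adjusted p = 0.0341). For both, the calcium-deficient arrays were above the control arrays, as they were for 5112 of all 17059 probe sets tested.

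Of 5 tested genes for protein folding in the endoplasmic reticulum 3 rose and 0 fell (median 0.81). CRT1b, a calreticulin, had 3222 and 2683 in the calcium-deficient arrays, against 1186 and 798 in the control arrays (log2 change 1.58, SE 0.28, adjusted p = 0.0191). ATERDJ3B, a luminal J-domain chaperone partner, had 2671 and 2245 in the calcium-deficient arrays, against 1103 and 645 in the control arrays (log2 change 1.52, adjusted p = 0.0306). ATERDJ2B, a J-domain protein of the translocon, rose as well (log2 change 0.81, adjusted p = 0.0157), and its copy ATERDJ2A did not pass (log2 change 0.17). The calcium-deficient arrays were above the control arrays for each of the 3 that rose, as they were for 5112 of all 17059 probe sets tested.

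Among genes of the cell wall, 0 of 5 tested pectin genes passed, though all 5 estimates were above 0 (median 0.34). Of these, PME61 and ATPMEPCRB are pectin methylesterases (log2 changes 0.34 and 0.83, the second with an adjusted p of 0.0621). In cellulose and hemicellulose synthesis 0 of 10 genes passed. As 11.3% of all probe sets passed, 0 calls in lists this short do not show a lack of change. Of 21 wall-loosening genes 3 rose (14.3%, list median 0.04), where 6.41% of all probe sets were higher. In the direct test against boron-deficient plants 0 of the 21 passed. XTH19, which cuts and rejoins xyloglucan, had 299 and 241 in the calcium-deficient arrays, against 73.4 and 49.7 in the control arrays (log2 change 1.89, adjusted p = 0.0299). Its boron-deficient arrays had 132 and 368. The expansin EXPA4 had 286 and 204 in the calcium-deficient arrays, against 106 and 101 in the control arrays (log2 change 1.11), and XTH32 rose by 0.85. AT5G62360, of the pectin methylesterase inhibitor superfamily and in none of these lists, went the other way, with 255 and 346 in the calcium-deficient arrays, against 2042 and 928 in the control arrays (log2 change −2.16, SE 0.42, adjusted p = 0.0228).

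Leucine, isoleucine and valine are broken down in the mitochondrion, and the electrons go to the respiratory chain through the electron transfer flavoprotein. Of 11 tested genes of this pathway 5 fell and 0 rose (median −0.26). MCCA, the biotin-carrying subunit of methylcrotonoyl-CoA carboxylase, had 397 and 512 in the calcium-deficient arrays, against 1544 and 3019.6 in the control arrays (log2 change −2.22, SE 0.31, adjusted p = 0.0112). IVD, isovaleryl-CoA dehydrogenase, had 480.1 and 659 in the calcium-deficient arrays, against 1739.6 and 2480.3 in the control arrays (log2 change −1.86, adjusted p = 0.0117). ETFQO, which passes the electrons to ubiquinone, fell by 1.83 (adjusted p = 0.0104), MCCB, the partner of MCCA, by 1.41 (adjusted p = 0.0107), and ALDH6B2, of the valine branch, by 1.14 (adjusted p = 0.0263). Both calcium-deficient arrays were below both control arrays for 8 of the 11, these 5 among them, where 30.8% of all probe sets were so. The remaining 6 lay between −0.26 and 0.43.

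MGL, methionine gamma-lyase, whose product feeds isoleucine synthesis, had 212 and 370.2 in the calcium-deficient arrays, against 1060.1 and 1483 in the control arrays (log2 change −2.10, SE 0.32, adjusted p = 0.0133); it was 1 of 5 synthesis genes and the only one of them to pass. Genes that rise in sugar starvation and darkness overlap these, and 3 of 4 tested fell: MCCA, IVD and ATL8, a RING-type ubiquitin ligase, with 213 and 331 in the calcium-deficient arrays, against 650.1 and 825 in the control arrays (log2 change −1.41, adjusted p = 0.0187). BCAT4, which starts methionine chain elongation for glucosinolates, rose instead, with 1214 and 842 in the calcium-deficient arrays, against 559 and 527 in the control arrays (log2 change 0.88, adjusted p = 0.0352). The glucosinolate list had 3 genes tested, of which BCAT4 and GSTU20 rose.

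**Figure D4:**
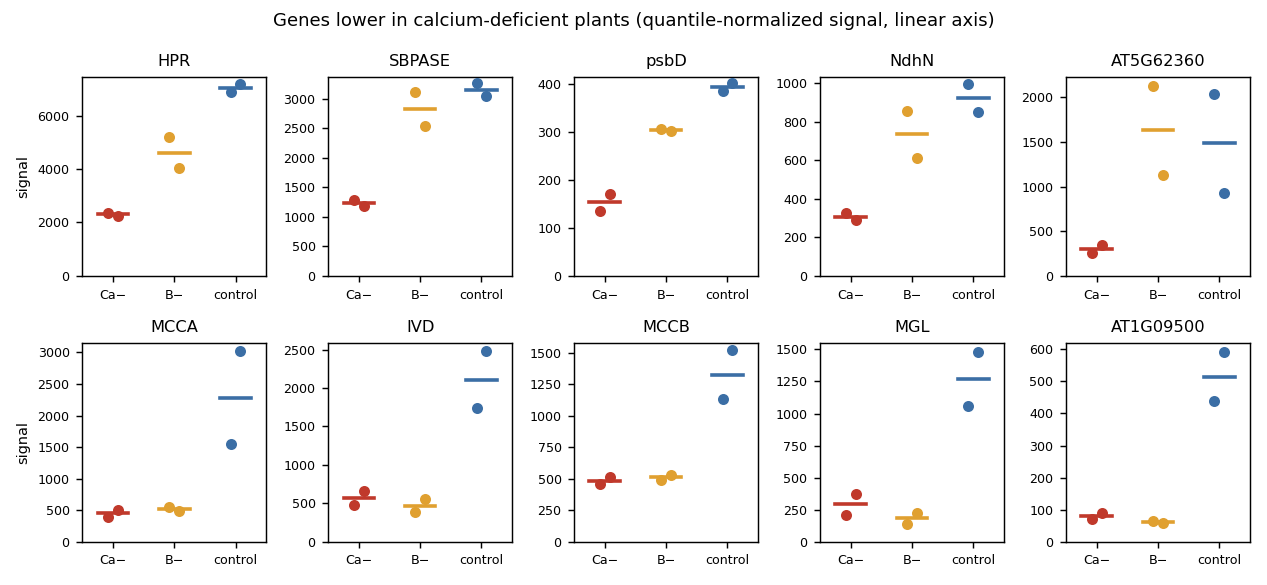
Quantile-normalized signal on a linear axis from 0 for 10 genes lower in calcium-deficient plants, with the 2 arrays (points) and their mean (line) for calcium-deficient (Ca−, left), boron-deficient (B−) and control plants. In HPR, SBPASE, psbD, NdhN and AT5G62360 the boron-deficient arrays lie above the calcium-deficient arrays, while in MCCA, IVD, MCCB, MGL and AT1G09500 they lie at or near them.

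Other strongly lowered genes included AT1G66100, a thionin-type antimicrobial peptide, with 123 and 171 in the calcium-deficient arrays, against 1144 and 1631 in the control arrays (log2 change −3.10, SE 0.61, adjusted p = 0.0235). AT1G09500, of the cinnamyl-alcohol dehydrogenase-like family, had 72.1 and 88.7 in the calcium-deficient arrays, against 437 and 593 in the control arrays (log2 change −2.45, adjusted p = 0.00483). GAT1_2.1, a class I glutamine amidotransferase, had 305 and 439.6 in the calcium-deficient arrays, against 1560.4 and 2439 in the control arrays (log2 change −2.36, adjusted p = 0.0156). MSRB6, a methionine sulfoxide reductase, and TAPX, the thylakoid ascorbate peroxidase that removes hydrogen peroxide, fell by 2.04 and 1.41. Each of these 5 genes was lower in both calcium-deficient arrays than in both controls, as were 30.8% of all probe sets. Except for TAPX, this was a condition of being named among the most lowered.

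Among 4 tested iron genes, ZIP9, a zinc transporter, rose to 219 and 148 in the calcium-deficient arrays, against 60.9 and 41.5 in the control arrays (log2 change 1.56, adjusted p = 0.0206), and AT1G47400, a small iron-deficiency peptide, rose by 1.42. Of 9 tested genes for potassium, magnesium, nitrate and boron transport, AT1G68570 rose (log2 change 1.28) and AT3G21670, a nitrate transporter family member, fell to 51.5 and 92.9 in the calcium-deficient arrays, against 221 and 434 in the control arrays (log2 change −1.93, adjusted p = 0.022). HTB2, a histone H2B, and PRL, a subunit of the MCM replicative helicase, rose by 1.14 and 0.83, as 2 of 5 cell cycle genes. Of 2 clock genes tested 0 passed (GI, log2 change −0.06). HAK5, BOR1, NIP5;1 and CAX3, which carry potassium, boron and calcium, were not analysed here.

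**Figure D5:**
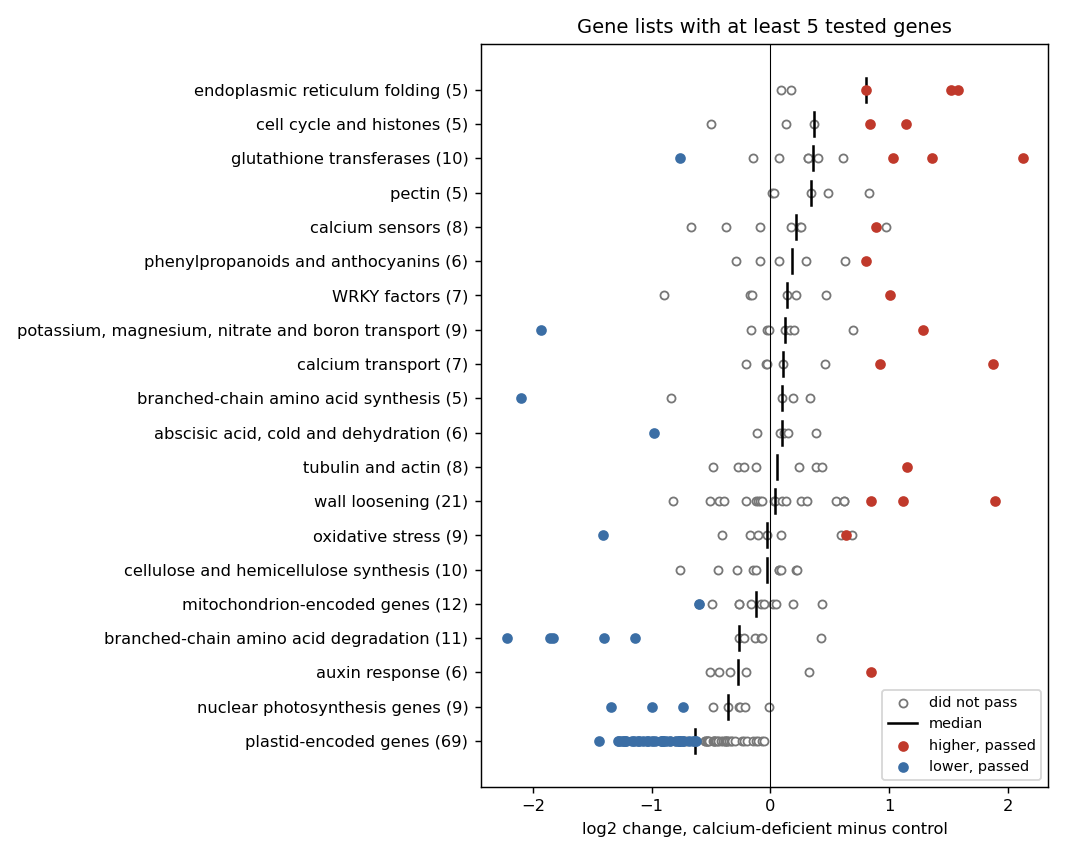
Log2 change (x axis, calcium-deficient minus control) of the tested genes of each list with at least 5 of them, with the number of genes in brackets. The 10 lists added after the values were seen are left out, and the lists shown were chosen with earlier results of these data known. Red points rose and blue points fell at an adjusted p under 0.05, open points did not pass and black lines are medians. Among these, plastid-encoded genes lie lowest with a median of −0.63 and endoplasmic reticulum folding highest with 0.81.

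Tested directly, calcium-deficient and boron-deficient plants differed at 467 probe sets (2.74%), 228 higher and 239 lower in calcium-deficient plants. Both treatments were set against the same control arrays, so their separate changes share that error. The genes most raised relative to boron deficiency were AT3G28510 (log2 difference 3.33, adjusted p = 0.0304), AT2G44240 of the neprosin family (787 and 765 in the calcium-deficient arrays, against 50.7 and 138 in the boron-deficient arrays, log2 difference 2.97), AT1G21520 (2.85), AT4G05030 (2.60) and AT4G00700, a C2-domain protein (2.18). The most lowered were AT5G62360 (255 and 346 in the calcium-deficient arrays, against 2132 and 1134 in the boron-deficient arrays, log2 difference −2.33, adjusted p = 0.0427), AT1G73600, a phosphoethanolamine methyltransferase (−1.92), AT4G21870 (−1.66), AT2G10940 (−1.63) and AT4G19430 (−1.54). Against controls, AT1G73600, AT4G19430 and AT1G21520 did not pass (log2 changes 0.97, −0.20 and 1.54), and AT1G73600 was higher in boron-deficient plants than in controls (log2 change 2.88, adjusted p = 0.0102).

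Of the genes described above, SBPASE, PSAN, PRK, HPR, AT1G11860, AT1G32470, NdhN, psbC and psbD were lower than in boron-deficient plants, with log2 differences from −1.20 in NdhN to −0.72 in PRK. CML43, GLR2.8, SAG101, ATERDJ2B, AT3G47540, AT5G03350 and UGT73D1 were higher, with differences from 0.82 in ATERDJ2B to 2.16 in UGT73D1. Without boron-deficient replicate 1, 26 probe sets were higher and 3 lower in this comparison, and without either calcium-deficient array 0 passed in limma, with 1830 (without replicate 1) and 1717 (without replicate 2) at an unadjusted p under 0.05.

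Leucine breakdown gave no call between the deficiencies. MCCA had 397 and 512 in the calcium-deficient arrays, against 551 and 492 in the boron-deficient arrays (log2 difference −0.20, 95% interval −0.92 to 0.52). IVD had 480.1 and 659 in the calcium-deficient arrays, against 387 and 557 in the boron-deficient arrays (log2 difference 0.27, 95% interval −0.35 to 0.89), and MCCB a log2 difference of −0.07 (95% interval −0.51 to 0.38). Against controls, boron deficiency gave log2 changes of −2.02, −2.12 and −1.34 for these genes, where 0.686% of probe sets were lower. The intervals are wide, so equal levels are not shown.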

How the data were processed

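RNA of whole Arabidopsis thaliana plants was hybridized to Affymetrix ATH1 arrays after biotin labelling, per the labels' protocols. The authors deposited a linear signal intensity for each of 22746 probe sets. The submitters' processing notes name GCOS 1.4, and its scaling target is not given in the sources at hand.

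The 6 arrays of 2 days were quantile normalized together and taken as log2(signal + 16). A filter removed probe sets whose mean fell below the 25th percentile, leaving 17059. The 3 groups of 2 arrays were fitted in limma 3.58.1 (R 4.3.3) with an intensity trend, leaving 3 residual degrees of freedom, and p-values were Benjamini-Hochberg adjusted over all kept probe sets with a threshold of 0.05. Figures were drawn with matplotlib 3.10.9. The number of arrays limits the precision. The fit was tested on simulated data.

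Of the probe sets, 14016 appear in the annotation table and 13513 have 1 gene there; 13436 matched a RefSeq gene of assembly TAIR10.1. The members and gene lists were chosen with earlier results of these data known. There were 39 lists, 10 more were added after seeing values, and 8 list entries were removed because their symbol belongs to another gene. Genes named are the 15 most raised and 15 most lowered against control, the 5 most raised and lowered against boron deficiency, and up to 4 called members of each list, or up to 2 with the highest signal where none was called. The most raised and most lowered genes were taken only from those that passed with both calcium-deficient arrays beyond both arrays of the other group. Further list members were named after their values were seen. Promoter motifs were not searched. Alternatives covered normalization, pseudocount, filter, arrays in the fit, moderation, array weights, a replicate block and leaving out each array.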

Additional observations from a re-analysis of the deposited data

Results flagged for a closer look

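The genes below responded differently to the deficiencies: relative to the shared control arrays, the change in calcium-deficient plants differed from that in boron-deficient plants of the same day, tested in limma as the difference between the deficiencies (calcium-deficient minus boron-deficient, log2, 2 arrays each, adjusted p between 0.00256 and 0.05). They are 30 of the 116 named genes, and 2.74% of all probe sets passed this test. Among the 30, the genes most raised or most lowered against boron deficiency were named because they passed this same test. The share of the named genes therefore cannot be set against that of all probe sets.

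Among genes higher in calcium-deficient than in boron-deficient plants, the AAA-type ATPase gene AT3G28510 differed by 3.33, AT2G44240 by 2.97, AT1G21520 by 2.85, AT4G05030 by 2.60, AT4G00700 by 2.18 and AT3G57950 by 2.08. The glycosyltransferase UGT73D1 differed by 2.16, the lectin AT5G03350 by 1.73, the beta-glucosidase BGLU25 by 1.60, the carboxypeptidase-like scpl46 by 0.88, and the chitinases AT3G47540 and AT2G43590 by 1.56 and 0.86. The channel gene GLR2.8 differed by 1.15, the calmodulin-like CML43 by 0.99, SAG101 by 0.89 and the chaperone partner ATERDJ2B by 0.82.

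Among genes lower in calcium-deficient than in boron-deficient plants, the Calvin-Benson cycle genes SBPASE and PRK differed by −1.18 and −0.72, the photorespiration genes HPR, AT1G11860 and AT1G32470 by −0.98, −1.10 and −1.19, and PSAN of photosystem I by −0.92. The plastid genes psbC and psbD differed by −1.17 and −0.92, and NdhN by −1.20. AT5G62360 differed by −2.33, AT1G73600 by −1.92, AT4G21870 by −1.66, AT2G10940 by −1.63 and AT4G19430 by −1.54. Against controls, 27 of the 30 passed in the same direction, but most of the 30 had been named because of a call against controls. The exceptions were AT1G73600, with 186 and 146 in the calcium-deficient arrays, 861 and 518 in the boron-deficient arrays and 95.9 and 60.6 in the control arrays (log2 change 0.97, calcium-deficient minus control, adjusted p = 0.0673, and 2.88, boron-deficient minus control), AT4G19430, with 173 and 202 in the calcium-deficient arrays, 550.0 and 602 in the boron-deficient arrays and 299 and 157 in the control arrays (log2 change −0.20, calcium-deficient minus control, adjusted p = 0.649), and AT1G21520 (log2 change 1.54, calcium-deficient minus control, adjusted p = 0.0577). Of the 30, 12 passed with the replicate block, 24 with no filter on low values, 6 without boron-deficient replicate 1 and 0 without either calcium-deficient array. In all, 12 passed under each alternative that leaves out no array and in which they were tested.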

How the results depend on the processing

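Calcium-deficient against control, the counts of probe sets higher and lower stayed within 1.5 times of 1093 and 829 under 11 of the 13 alternatives that leave out no array. The exceptions were the fit of all 10 arrays, with 2012 higher and 1694 lower, and the replicate block, with 752 higher and 536 lower. Higher calls were 56.9% of all calls, 50.3% on the values as deposited and 49.4% after median centring. Against boron deficiency, 139 were lower with no filter on low values and 378 with a filter at the 50th percentile, while 806 were higher and 978 lower in the fit of all 10 arrays, 733 and 840 with array weights, and 86 and 24 with the replicate block. Boron-deficient against control gave 30 higher and 16 lower in the fit of 4 arrays, 990 and 464 in that of all 10, 124 and 39 with array weights, and 192 higher with the replicate block. Leaving out one array gave 0 to 1295 higher and 0 to 979 lower in calcium-deficient plants against controls, 0 to 551 and 0 to 492 against boron deficiency, and 30 to 670 and 16 to 348 for boron deficiency against controls. Without a calcium-deficient array the spread is estimated from the other pairs alone, and the calcium-deficient mean rests on a single array. The median absolute log2 differences of those pairs were 0.176 (boron-deficient) and 0.221 (control), above the 0.115 of the calcium-deficient pair. The cause of these changes in counts was not tested. Of the 103 named calls against control, 86 passed under each of the 13 alternatives that tested them (the filter at the 50th percentile kept 89 of the 103), and no named gene that passed changed sign. Of the 69 plastid genes, 25 to 42 were called lower under these. Deviations of same-numbered arrays correlated at 0.107 between calcium-deficient and control, −0.072 between calcium-deficient and boron-deficient, and −0.209 between boron-deficient and control. Each value compares a single replicate difference per group, so it cannot show whether the replicate numbers pair the arrays. With the replicate block 90 of the 103 named calls passed.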

Other observations

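Other named genes were raised in calcium-deficient plants against controls. AT5G23840 and AT5G23830, neighbours with an MD-2-related lipid recognition domain, had 356 and 324 in the calcium-deficient arrays, against 30.7 and 53.8 in the control arrays for the first (log2 change 2.64, adjusted p = 0.0137) and a log2 change of 2.35 for the second. The lipid transfer protein-like AT3G53980 had 890.1 and 829.8 in the calcium-deficient arrays, against 166 and 125 in the control arrays (log2 change 2.45, adjusted p = 0.00966). AT1G55210, a dirigent protein, of a family that guides lignan coupling, had 2019 and 1752 in the calcium-deficient arrays, against 508 and 184 in the control arrays (log2 change 2.55, adjusted p = 0.0186). AT1G20380, of the prolyl oligopeptidase family, AT5G26260, with a TRAF-like domain, and AT4G10270, of a wound-responsive family, rose by 2.66, 2.40 and 2.28. GH3.17, which conjugates auxin to amino acids, was the 1 of 6 auxin genes to pass (log2 change 0.85), and DFR of anthocyanin synthesis the 1 of 6 phenylpropanoid genes (log2 change 0.81).

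Among lowered genes, AT1G62510, of the lipid transfer protein family, had 282 and 345 in the calcium-deficient arrays, against 1999 and 1566 in the control arrays (log2 change −2.44, adjusted p = 0.0226), and the lipase-like AT1G02660 had 179 and 212 in the calcium-deficient arrays, against 581 and 1384 in the control arrays (log2 change −2.12, adjusted p = 0.0419). AT1G71000, a J-domain protein, had 34.1 and 33.8 in the calcium-deficient arrays, against 164 and 214 in the control arrays (log2 change −2.03, adjusted p = 0.00876), and the glutaredoxin-like AT3G62950 fell by 2.02. COR27, a cold-regulated protein of the clock, and cox2, a mitochondrial gene for cytochrome oxidase, fell by 0.98 and 0.60. The wall-sensing kinases FER and THE1 (log2 changes −0.21 and −0.29) and EIN3, the ethylene factor (−0.25), did not pass. Of the genes named here that were called, AT1G20380, GH3.17, AT3G62950 and AT1G02660 no longer passed without control replicate 2, cox2 without control replicate 1, and AT5G26260, DFR, AT1G62510 and COR27 without replicate 1 and also without replicate 2. DFR also did not pass in the fit of all 10 arrays.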
